A study of Homo sapiens with 8 samples.

Results

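The genes described here are 35 genes of the endoplasmic reticulum (ER) folding and quality-control system, which hold the ER chaperones, the disulfide enzymes, the factors of ER-associated degradation (ERAD) and the stress sensors of the unfolded protein response. They were taken by symbol from a written list, matched through GENCODE, and all 35 were found among the 58735 gene identifiers of the count files. All 35 also passed the filter on low counts, which left 16452 genes to be tested. The cells were 22Rv1, a human castration-resistant prostate cancer line. In 4 libraries the cells had been given PCC0208017, which the submitters describe as a MARK3 inhibitor and abbreviate to MARK3i, and in 4 Control libraries they had been given DMSO, the vehicle. No dose or duration is stated in the labels, and no allele or further agent is named for either group. A single cell line was used, and no sample used here had MARK3 targeted by other means, so effects of MARK3 inhibition and other effects of the compound cannot be told apart.

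Secreted and membrane proteins enter the ER through the Sec61 channel and fold there with the help of the Hsp70 protein BiP, the Hsp90 protein GRP94, the lectin chaperones calnexin and calreticulin and the protein disulfide isomerases. Proteins that do not fold are drawn back through the membrane by ERAD and destroyed by the proteasome. When unfolded protein builds up, the membrane sensors IRE1 (gene ERN1), ATF6 and PERK (gene EIF2AK3) are released from BiP: IRE1 splices the XBP1 mRNA, ATF6 is cut to free a transcription factor, and PERK slows translation. XBP1 and ATF6 then raise the transcription of the chaperone and ERAD genes, in part through ER stress elements in their promoters. Prostate epithelium is a secretory tissue, and its cells carry much of this machinery.

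The total was between 13517289 and 21271127 counts in MARK3i libraries and between 12672817 and 13386143 in Control libraries, with MARK3i replicate 2 the deepest. Nothing in the labels states that the replicates are separate cultures: the p-values reflect only how far these libraries varied, and that variation may be technical. Control replicates 1 and 2 differed little (chi-square of their counts per degree of freedom 1.74), as did replicates 3 and 4 (1.712). Other Control pairs stood at 3.485 to 4.678. What sets these pairs apart was not tested, and the SEs and p-values below treat every library as separate. Of the markers of prostate epithelium, HOXB13, FOLH1, KRT8, KRT18, EPCAM and CDH1 had counts in every library. The log2 change, MARK3i minus Control, of these genes lay between −0.75 ± 0.06 (FOLH1) and 0.31 ± 0.05 (CDH1), and its part in the results below was not tested. Of 10 markers of other cell types, 2 to 4 had a count in a MARK3i library and 3 to 5 in a Control library. Their summed level was 14.6 to 22.9 CPM (unscaled; counts relative to the library total) in MARK3i and 9.15 to 13.97 in Control, nearly all of it COL1A1, while PECAM1 and CD3E were at 0 in all 8 libraries. Levels below are CPM scaled with TMM factors, and changes are log2 fold changes, MARK3i minus Control, ± SE with n = 4 libraries each. A gene was called when its p from the quasi-likelihood test of edgeR, adjusted by Benjamini-Hochberg over all tested genes, was under 0.05.

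Promoter sequence is shown first, because promoters were not themselves used to select these genes. The list was, however, written by name from ER folding and unfolded protein response genes, which are raised in part through ER stress elements. A high share of such elements among them is therefore not an independent result. RefSeq promoters (GRCh38.p14, 250 bases before to 50 after a transcript start) were found for 31 of the 35 genes. CANX, PDIA6, SEC61A1, TXNDC5, CREB3L2, PDIA4 and XBP1 have more than 1 listed start, and DERL1, DERL3, PDIA3 and SEC24D had no entry. The ER stress element was searched as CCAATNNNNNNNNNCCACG and the ER stress element II as ATTGGNCCACG, on both strands and with no mismatch. The first was present in 8 of the 31 genes (25.8%), against 25 of 27305 genes in the whole table (0.0916%). The second was present in 3 of the 31 (9.68%), against 19 of 27305 (0.0696%). With only 150 bases before the start, the first was present in 6 of the 31 (19.4%, against 0.0696% of genes). The second was then present in 2 (6.45%, against 0.0623%). The matches of the first kind are listed with the fixed letters in capitals, and each reads 5′ to 3′ on the strand given in front of it.

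HSPA5, chr9:125241391-125241409, minus strand: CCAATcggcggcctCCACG
HSP90B1, chr12:103930216-103930234, plus strand: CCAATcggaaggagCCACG
HSP90B1, chr12:103930321-103930339, minus strand: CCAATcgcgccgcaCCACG
CALR, chr19:12938384-12938402, minus strand: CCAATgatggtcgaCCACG
CANX, chr5:179698778-179698796, plus strand: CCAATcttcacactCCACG
CRELD2, chr22:49918554-49918572, minus strand: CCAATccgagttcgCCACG
PDIA6, chr2:10812853-10812871, minus strand: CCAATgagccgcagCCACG
XBP1, chr22:28800603-28800621, minus strand: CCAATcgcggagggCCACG
ERO1B, chr1:236282183-236282201, plus strand: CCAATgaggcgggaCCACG

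The 9-base spacer differed between all of these matches, and only HSP90B1 held a pair of them. Relative to the start, they lay between −243 (ERO1B) and −34 (XBP1), and the HSPA5 match covered bases −66 to −48. In CANX the same bases fall into the windows of 3 listed starts, and the position used here is −151 to −133. The matches of the second kind, again with fixed letters in capitals, were the following.

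HYOU1, chr11:119057380-119057390, plus strand: ATTGGaCCACG
HYOU1, chr11:119057274-119057284, plus strand: ATTGGaCCACG
HERPUD1, chr16:56932025-56932035, plus strand: ATTGGgCCACG
SDF2L1, chr22:21642114-21642124, minus strand: ATTGGtCCACG

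Both HYOU1 matches hold the same 11 letters and run against the gene. The whole promoters of HSPA5 and HYOU1 follow, as chaperone genes with either kind of element, with that of the sensor gene ATF6, which held neither. Capitals mark the fixed letters of both elements and of the UPR element TGACGTGG, which on its other strand begins with the same CCACG and shares those bases with 1 match in HYOU1. The HSPA5 and HYOU1 sequences lie on the minus strand and the ATF6 sequence on the plus strand.

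HSPA5, chr9:125241294-125241593: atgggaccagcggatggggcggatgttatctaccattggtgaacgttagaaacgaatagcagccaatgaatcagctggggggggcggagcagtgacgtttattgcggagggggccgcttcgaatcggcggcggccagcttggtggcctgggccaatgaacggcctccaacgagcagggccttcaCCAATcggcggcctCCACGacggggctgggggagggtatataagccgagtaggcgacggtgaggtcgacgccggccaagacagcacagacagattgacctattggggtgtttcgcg
HYOU1, chr11:119057156-119057455: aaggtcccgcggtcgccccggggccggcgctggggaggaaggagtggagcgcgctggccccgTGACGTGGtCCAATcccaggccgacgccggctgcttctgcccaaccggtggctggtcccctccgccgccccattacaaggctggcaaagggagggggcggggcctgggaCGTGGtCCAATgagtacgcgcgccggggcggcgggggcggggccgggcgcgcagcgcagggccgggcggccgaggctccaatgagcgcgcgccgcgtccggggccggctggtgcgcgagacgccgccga
ATF6, chr1:161766070-161766369: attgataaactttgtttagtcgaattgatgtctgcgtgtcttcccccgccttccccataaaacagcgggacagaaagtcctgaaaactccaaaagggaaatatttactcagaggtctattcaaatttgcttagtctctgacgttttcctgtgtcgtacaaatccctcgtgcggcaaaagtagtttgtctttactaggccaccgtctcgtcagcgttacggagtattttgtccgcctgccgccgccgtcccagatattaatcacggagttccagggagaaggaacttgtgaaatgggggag

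As a group, the 35 genes were lower in MARK3i-treated cells, while the sensor genes were not. Of the 35, 19 were called lower (54.3%), 5 were called higher (14.3%) and 11 were not called. Among all tested genes 28.3% were called lower and 29.8% higher, 58.0% in all. The median log2 change was −0.23 over the 35 genes and 0.02 over all tested genes. In 22 of the 35 (62.9%) all 4 MARK3i libraries lay beyond all 4 Control libraries, against 51.0% of all tested genes. Of the 35, 7 (20%) were called lower with a log2 change of −1 or beyond, against 6.09% of all tested genes. Under scaling by total counts, which raised the median change of all genes by 0.11 and gave 63.6% of calls as higher against 51.3% with TMM factors, 10 of the 35 were called higher and the median was −0.12.

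The 35 genes together took up 0.514% to 0.533% of all counts in MARK3i libraries and 0.774% to 0.810% in Control libraries. In bulk RNA, fewer cells with a transcript and less of it per cell cannot be told apart.

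**Figure D1:**
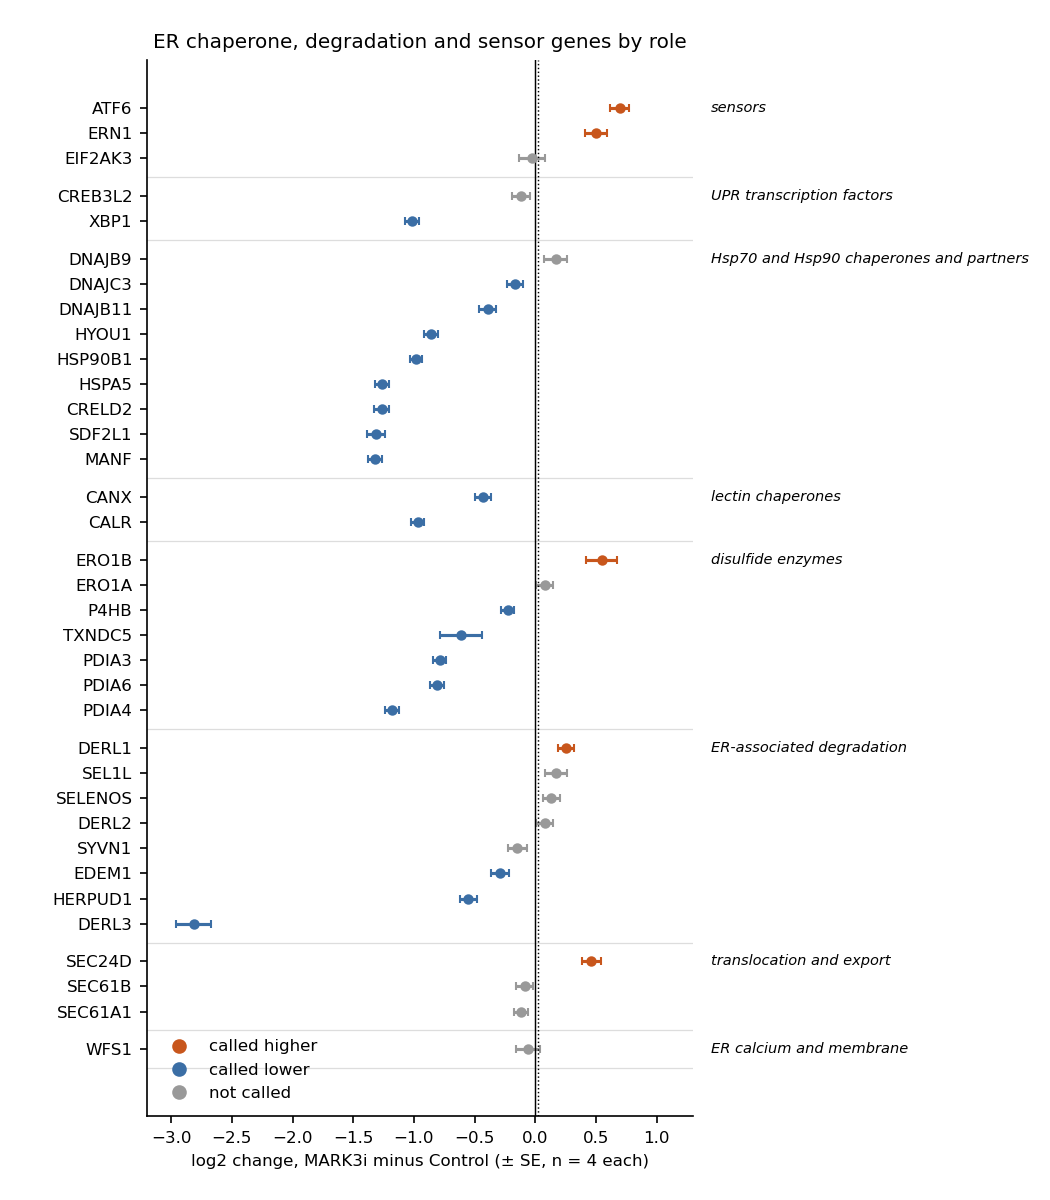
Log2 change, MARK3i minus Control, of the 35 genes by role (points, with SE, n = 4 libraries each); the solid line is 0, the dotted line is the median of all tested genes, 0.02, and colours give the call. ATF6 and ERN1 lie at 0.70 and 0.50, while 8 of 9 genes of the Hsp70 and Hsp90 group lie to the left and were called lower, with DERL3 farthest left at −2.82.

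The sensor genes came first in the comparison of sensors with effectors. ATF6 (ENSG00000118217; chromosome 1, 161766298 to 161977574, hg38, plus strand), which encodes the sensor that becomes a transcription factor, stood at 85.3, 67.3, 80.8 and 73.1 CPM in MARK3i replicates 1 to 4 and at 51.8, 47.5, 46.0 and 43.4 CPM in Control replicates 1 to 4. Every MARK3i library was above every Control library, and ATF6 was called higher (0.70 ± 0.08, adjusted p = 3.05e-08). ERN1 (ENSG00000178607; chromosome 17, 64039080 to 64130819, minus strand), which encodes the kinase and RNase that splices XBP1 mRNA, had 23.9, 23.3, 26.5 and 23.0 CPM in MARK3i and 19.1, 17.9, 16.8 and 14.4 CPM in Control. Its groups did not overlap either, and it was called higher (0.50 ± 0.09, adjusted p = 5.77e-05). Both calls held under all 19 alternatives.

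EIF2AK3 (ENSG00000172071; chromosome 2, 88556741 to 88691518, minus strand), the gene of the kinase PERK, had 18.1, 15.4, 14.6 and 12.1 CPM in MARK3i and 15.3, 15.1, 16.7 and 14.5 CPM in Control. These values overlapped and the gene was not called (−0.03 ± 0.11, adjusted p = 0.853). A small change in either direction was not detectable at this spread.

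The transcription factor gene XBP1 (ENSG00000100219; chromosome 22, 28794555 to 28800597, minus strand) went the other way from ERN1. It had 86.9, 75.3, 77.9 and 83.9 CPM in MARK3i and 157.6, 170.4, 160.7 and 165.7 CPM in Control. The groups were far apart, and XBP1 was called lower (−1.02 ± 0.06, adjusted p = 3.86e-13). A count per gene does not separate spliced from unspliced XBP1 mRNA, so IRE1 activity was not measured. CREB3L2, the gene of an ER-anchored transcription factor related to ATF6, averaged 49.5 ± 2.59 CPM in MARK3i and 53.6 ± 4.90 CPM in Control (SD, n = 4 each) and was not called (−0.12 ± 0.07, adjusted p = 0.175).

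Among the Hsp70 and Hsp90 chaperones and their partners, 8 of 9 were called lower and 0 higher, with a median of −0.98. The counts of this and each later role are to be read against all tested genes, 28.3% lower and 29.8% higher. HSPA5 (ENSG00000044574; chromosome 9, 125234853 to 125241382, minus strand), which encodes BiP, had 381.7, 342.0, 335.3 and 357.7 CPM in MARK3i and 870.5, 853.4, 837.3 and 836.3 CPM in Control. This was 2.40-fold lower in MARK3i, with no library of either group near the other (−1.26 ± 0.06, adjusted p = 9.21e-16). HSP90B1 (ENSG00000166598; chromosome 12, 103930107 to 103953931, plus strand), which encodes GRP94, had 813.4, 785.3, 758.5 and 780.8 CPM in MARK3i and 1599, 1565, 1514 and 1523 CPM in Control. It was called lower (−0.98 ± 0.05, adjusted p = 4.08e-14), with groups as clearly apart as those of HSPA5.

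MANF, SDF2L1 and CRELD2 fell about as far as HSPA5, and HYOU1 fell by less. MANF (ENSG00000145050; chromosome 3, 51385291 to 51389397, plus strand), the gene of a secreted ER protein that binds BiP, had 62.0, 63.3, 64.5 and 66.7 CPM in MARK3i and 164.4, 162.8, 146.8 and 166.3 CPM in Control (−1.32 ± 0.06, adjusted p = 2.42e-15). SDF2L1 (ENSG00000128228; chromosome 22, 21642302 to 21644299, plus strand), whose product works with BiP and its J-domain partners, had 42.9, 39.9, 34.3 and 41.4 CPM in MARK3i and 93.2, 95.4, 100.1 and 105.6 CPM in Control (−1.31 ± 0.07). For both genes every MARK3i library lay far below every Control library. CRELD2, an ER-resident EGF-repeat protein gene, averaged 88.9 ± 6.75 CPM in MARK3i and 213.9 ± 8.63 CPM in Control (−1.27 ± 0.06), and HYOU1, the gene of a large Hsp70-related chaperone that acts as a nucleotide exchange factor for BiP, had 130.4 to 150.7 CPM in MARK3i and 246.4 to 259.8 CPM in Control (−0.86 ± 0.06).

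The J-domain co-chaperone genes did not share this size of change. DNAJB11 had 31.2 to 34.0 CPM in MARK3i and 41.2 to 47.2 CPM in Control and was called lower (−0.39 ± 0.07, adjusted p = 5.83e-05). DNAJC3, which encodes the protein P58IPK, was called lower by a small amount (−0.17 ± 0.07, adjusted p = 0.0364), with overlapping libraries, 75.0 to 89.8 CPM in MARK3i and 85.4 to 96.6 CPM in Control. Its call ended under 8 of 19 alternatives, among them total counts (−0.06, adjusted p = 0.43) and leaving out MARK3i replicate 2 or 4 or Control replicate 1, 2 or 4. Over its alternatives the adjusted p ranged between 6.84e-06 and 0.43. DNAJB9, which encodes a J-domain protein that binds IRE1 and BiP, was the member of this group that was not called (0.17 ± 0.10, adjusted p = 0.138), at 17.2 to 20.5 CPM in MARK3i and 14.3 to 18.01 CPM in Control. It was called higher under 1 of 19 alternatives (adjusted p between 0.0181 and 0.831 over them).

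**Figure D2:**
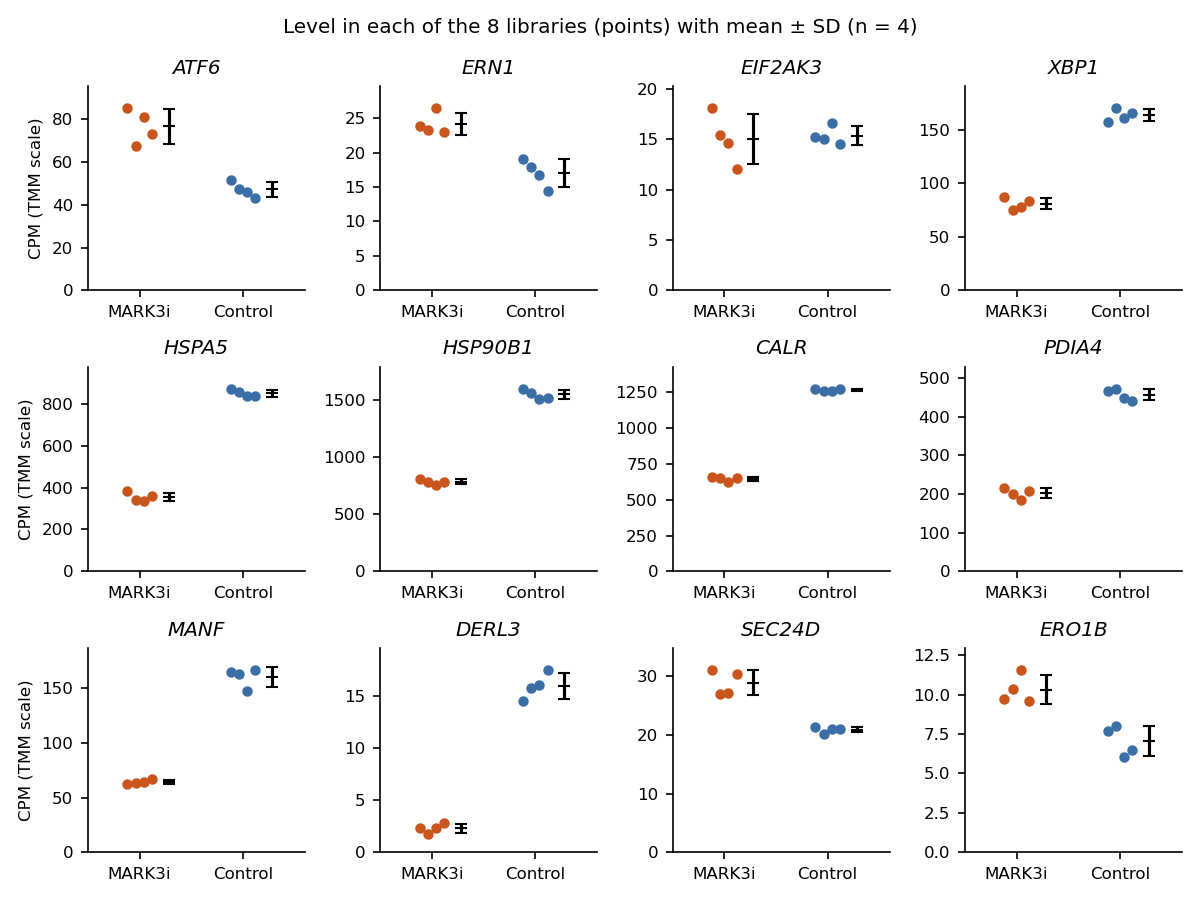
CPM on the TMM scale in each library (points) with mean ± SD (n = 4) for 12 of the genes, MARK3i on the left and Control on the right of each panel, each axis starting at 0. HSPA5 lies between 335.3 and 381.7 CPM in MARK3i and between 836.3 and 870.5 CPM in Control, whereas the points of EIF2AK3 overlap.

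Both lectin chaperone genes fell. CALR (ENSG00000179218; chromosome 19, 12938578 to 12944489, plus strand), which encodes soluble calreticulin, had 658.2, 650.8, 627.6 and 648.6 CPM in MARK3i and 1274, 1260, 1256 and 1273 CPM in Control (−0.97 ± 0.05, adjusted p = 3.18e-14). CANX, which encodes membrane-bound calnexin, had 563.6 to 703.1 CPM in MARK3i and 793.3 to 901.2 CPM in Control (−0.43 ± 0.07, adjusted p = 4.35e-06). The groups did not overlap for either gene, and the fall of CALR was the larger. The log2 ratio of CALR to CANX counts within a library averaged 0.04 ± 0.14 in MARK3i and 0.58 ± 0.10 in Control (SD, n = 4 each), a difference of −0.54. The two-sided exact permutation test gave p = 0.0286, the smallest p that 4 libraries against 4 allow, and 0.0408 after Benjamini-Hochberg adjustment over the 10 ratios computed.

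Of the 7 disulfide enzyme genes, 5 were called lower, 1 was called higher and 1 was not called (median −0.61). PDIA4 (ENSG00000155660; chromosome 7, 149003062 to 149028662, minus strand), a protein disulfide isomerase gene, had 214.5, 200.2, 184.0 and 208.5 CPM in MARK3i and 467.4, 471.7, 448.5 and 440.9 CPM in Control (−1.18 ± 0.06, adjusted p = 6.81e-15). PDIA6, a further isomerase gene (−0.81 ± 0.06), and PDIA3, whose product acts on glycoproteins held by calnexin and calreticulin (−0.79 ± 0.05), fell as well. P4HB, the gene of the founding isomerase PDI, fell least, with 433.5 to 482.0 CPM in MARK3i and 525.9 to 548.2 CPM in Control (−0.23 ± 0.05, adjusted p = 0.000839). Its groups did not overlap, but after adjustment for transcript GC content the change was −0.12 and no longer called (adjusted p = 0.0504, with a range of 3.27e-05 to 0.0504 over its alternatives). TXNDC5 had few counts, at 3.29 to 5.88 CPM in MARK3i and 5.25 to 7.63 CPM in Control. It was called lower with overlapping libraries (−0.61 ± 0.17, adjusted p = 0.00367). TXNDC5 shares 2658 of its 4361 exon bases with BLOC1S5-TXNDC5 on the same strand, which had 0 CPM. What this overlap does to the TXNDC5 counts was not tested.

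The paralogs that re-oxidise PDI differed from the isomerases. ERO1B (ENSG00000086619; chromosome 1, 236214681 to 236282019, minus strand) had 9.69, 10.4, 11.6 and 9.61 CPM in MARK3i and 7.68, 8.00, 6.07 and 6.48 CPM in Control. It was called higher without overlap (0.55 ± 0.12, adjusted p = 0.000578). ERO1A, the more abundant paralog, had 53.2 to 56.3 CPM in MARK3i and 48.1 to 57.3 CPM in Control and was not called (0.08 ± 0.07, adjusted p = 0.355). It was called higher under 1 of 19 alternatives (adjusted p between 0.0302 and 0.703 over them). The log2 ratio of ERO1A to ERO1B counts averaged 2.42 ± 0.13 in MARK3i and 2.89 ± 0.10 in Control (SD, n = 4 each), a difference of −0.47 (two-sided exact permutation p = 0.0286, adjusted p = 0.0408 over 10 ratios).

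Of the 8 ERAD genes, 3 were called lower (37.5%, against 28.3% of all tested genes), 1 was called higher (12.5%, against 29.8%) and 4 were not called (median −0.03). Under total counts 4 were called higher, DERL2 among them (0.18, adjusted p = 0.0257), and 2 were called higher without MARK3i replicate 2 or 3 or Control replicate 1, with upper-quartile scaling, without the filter or with the replicate block. DERL3 (ENSG00000099958; chromosome 22, 23834503 to 23839128, minus strand), a derlin that helps draw proteins out of the ER, had the largest change of all 35 genes. It had 2.30, 1.75, 2.31 and 2.84 CPM in MARK3i, from 33 to 41 counts, and 14.5, 15.8, 16.0 and 17.5 CPM in Control, from 185 to 224 counts. The level in MARK3i was 7.04-fold lower, without overlap (−2.82 ± 0.14, adjusted p = 1.60e-14), and 0.389% of tested genes changed by more in either direction. DERL3 shares 2923 of its 3796 exon bases with SMARCB1 on the opposite strand, which averaged 132.0 ± 6.68 CPM in MARK3i and 166.2 ± 12.4 CPM in Control (−0.33 ± 0.06). The labels do not state a strand setting for the counting, and the part of SMARCB1 reads in the DERL3 values was not tested.

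Its paralogs did not fall. DERL1 had 71.0 to 74.8 CPM in MARK3i and 54.7 to 65.8 CPM in Control and was called higher (0.26 ± 0.07, adjusted p = 0.00187). Its opposite-strand neighbour TBC1D31, with which it shares 333 exon bases, was also higher (0.60 ± 0.09). DERL2 was not called (0.08 ± 0.07, adjusted p = 0.356), and the log2 ratio of DERL1 to DERL2 counts, 0.73 ± 0.11 in MARK3i and 0.54 ± 0.14 in Control, did not pass the test (difference 0.18, exact permutation p = 0.0571, adjusted p = 0.0714).

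HERPUD1, whose product assembles the HRD1 ligase complex, had 71.2 to 83.9 CPM in MARK3i and 108.3 to 126.4 CPM in Control (−0.55 ± 0.07, adjusted p = 1.68e-07). EDEM1, which directs mannose-trimmed glycoproteins to ERAD, fell by less (−0.29 ± 0.07, adjusted p = 0.00175). The core of the ligase complex itself was not called: SYVN1, the HRD1 ubiquitin ligase gene, averaged 70.9 ± 10.01 CPM in MARK3i and 78.8 ± 3.85 CPM in Control (−0.15 ± 0.08, adjusted p = 0.119), and SEL1L, its adaptor, 118.0 ± 15.5 CPM in MARK3i and 104.5 ± 12.9 CPM in Control (0.17 ± 0.09, adjusted p = 0.109). Without MARK3i replicate 2, which was highest for SYVN1 and lowest for SEL1L, both were called, SYVN1 lower (−0.24, adjusted p = 0.00827) and SEL1L higher (0.25, adjusted p = 0.0125). The adjusted p of SYVN1 reached 0.707 over its alternatives and that of SEL1L 0.618. SELENOS, a selenoprotein of the same complex, was not called (0.13 ± 0.07, adjusted p = 0.12), but was called higher without MARK3i replicate 3 (0.18, adjusted p = 0.0326, with 0.00689 to 0.388 over its alternatives).

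Of the 3 translocation and export genes, 1 was called higher and the others were not called. SEC61A1, the pore subunit of the Sec61 channel, had 251.9 to 291.2 CPM in MARK3i and 289.3 to 297.1 CPM in Control and was not called (−0.12 ± 0.05, adjusted p = 0.0685). It was called lower without MARK3i replicate 1 (−0.17, adjusted p = 0.00801, with a range up to 0.822 over its alternatives). SEC61B, a small subunit of the same channel, was not called (−0.09 ± 0.07, adjusted p = 0.288). SEC24D (ENSG00000150961; chromosome 4, 118722823 to 118838683, minus strand), a cargo adaptor of the COPII coat that leaves the ER, had 31.0, 26.9, 27.1 and 30.3 CPM in MARK3i and 21.3, 20.2, 20.9 and 21.1 CPM in Control. The groups did not overlap and SEC24D was called higher (0.46 ± 0.08, adjusted p = 2.96e-05). WFS1, the gene of wolframin, an ER membrane protein linked to calcium balance, averaged 18.1 ± 1.04 CPM in MARK3i and 18.9 ± 2.76 CPM in Control and was not called (−0.06 ± 0.10, adjusted p = 0.638).

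The sensors were then set against the effectors, the 29 chaperone, disulfide, ERAD and translocation genes. Of the 29, 18 were called lower (62.1%), 3 higher (10.3%) and 8 not called, with a median of −0.39. Among all tested genes 28.3% were called lower and 29.8% higher. The effectors were mixed, with medians of −0.03 for the ERAD genes and −0.09 for the translocation and export genes. Of the 3 sensor genes 2 were called higher and 1 was not called, too few genes to set against these shares. The mean log2 CPM of the sensors minus that of the effectors was −1.24, −1.36, −1.23 and −1.52 in MARK3i replicates 1 to 4 and −2.15, −2.24, −2.18 and −2.35 in Control replicates 1 to 4. The gap was thus narrower in all 4 MARK3i libraries, by 0.89 on average, and it is given as a description without a test. The scaling of a library nearly cancels in this gap, so other scalings could not change it. The average narrowing was 0.84 with the GC adjustment and lay between 0.85 and 0.95 with any 1 library left out.

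**Figure D3:**
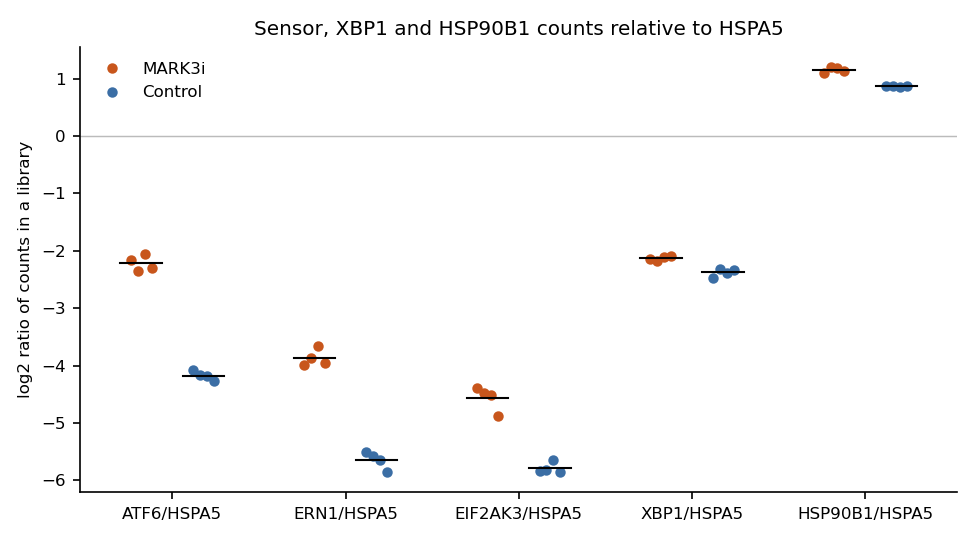
Log2 ratio of the counts of ATF6, ERN1, EIF2AK3, XBP1 and HSP90B1 to those of HSPA5 in each library (points; lines are means of 4), MARK3i left of Control. The ATF6 ratio averages −2.21 in MARK3i and −4.17 in Control, while the XBP1 ratio differs by only 0.25.

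Ratios of counts within a library do not depend on how libraries are scaled. The log2 ratio of ATF6 to HSPA5 counts averaged −2.21 ± 0.13 in MARK3i and −4.17 ± 0.08 in Control (SD, n = 4 each), a 3.89-fold shift. For ERN1 to HSPA5 it was −3.87 ± 0.15 in MARK3i and −5.65 ± 0.15 in Control, a 3.42-fold shift. For EIF2AK3 to HSPA5, where only HSPA5 was called, it was −4.57 ± 0.22 in MARK3i and −5.79 ± 0.09 in Control. XBP1 fell nearly in step with HSPA5, with a log2 ratio of −2.13 ± 0.04 in MARK3i and −2.38 ± 0.06 in Control. HSP90B1 fell slightly less than HSPA5, with 1.15 ± 0.05 in MARK3i and 0.87 ± 0.01 in Control. In all 5 of these ratios every MARK3i library was above every Control library (two-sided exact permutation p = 0.0286 each, adjusted p = 0.0408 over 10 ratios). All 5 share HSPA5 as the denominator, which was itself called lower without overlap. A gene with no change, such as EIF2AK3, passes for that reason, so the 5 are not separate results. The ratios SEL1L to SYVN1 (difference 0.34, exact permutation p = 0.2, adjusted p = 0.222) and SEC61A1 to SEC61B (difference −0.03, exact permutation p = 0.629) did not pass the test.

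Levels of different genes were compared per kilobase of exon. In MARK3i CALR was highest at 230.7 ± 4.68 CPM per kilobase (SD, n = 4), followed by PDIA4 (61.2 ± 4.02), HSP90B1 (59.9 ± 1.72) and HSPA5 (54.2 ± 3.16), of which PDIA4 and HSP90B1 differed by less than their SD. In Control CALR was again highest at 451.7 ± 3.26, and PDIA4 (138.6 ± 4.48), HSPA5 (130.1 ± 2.47) and HSP90B1 (118.4 ± 3.02) followed. At the low end stood ERN1 (1.26 ± 0.08 in MARK3i and 0.891 ± 0.10 in Control), EIF2AK3 (0.728 ± 0.12 in MARK3i and 0.743 ± 0.04 in Control) and ERO1B (0.671 ± 0.06 in MARK3i and 0.459 ± 0.06 in Control). DERL3 had the lowest mean in MARK3i (0.606 ± 0.12), though it lay below ERO1B by less than its own SD. In Control it held rank 28 of 35 (4.20 ± 0.32). The exon length counts every annotated exon of a gene, so genes with many alternative exons appear lower than their main transcript would.

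The calls for lower genes lay mostly among the genes with a high level per length in Control. Of the 17 genes with the highest level per length in Control, 15 were called lower and 0 higher, with a median change of −0.86. Of the other 18, 4 were called lower and 5 higher, with a median change of 0.08. The median SE was 0.06 in the first set and 0.08 in the second. Both sets are to be read against all tested genes, 28.3% lower and 29.8% higher. Tested genes of similar level were not compared. The Control mean that made the split is also part of the change, so a high Control value by itself favours a lower call. Whether level has a part in the calls beyond this was not tested.

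**Figure D4:**
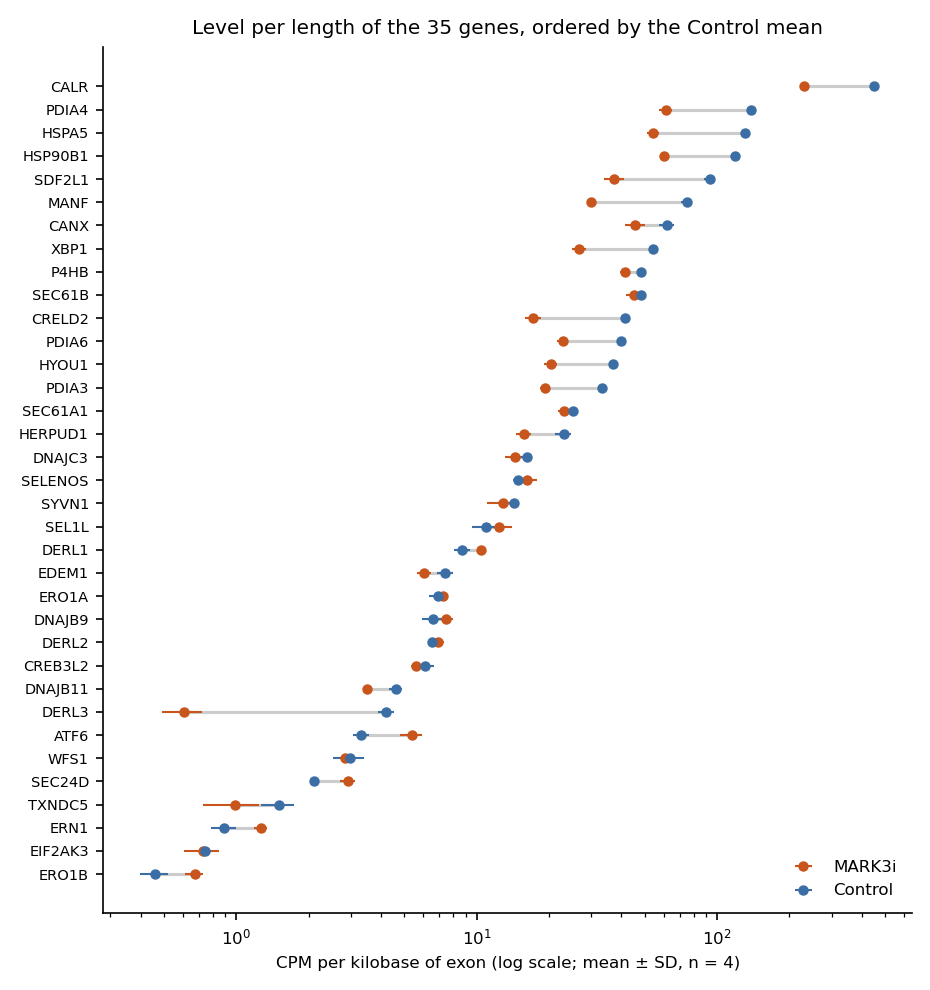
Mean level per kilobase of exon ± SD (n = 4; log axis) of the 35 genes in MARK3i and Control, ordered by the Control mean. CALR is highest in both groups, at 230.7 in MARK3i and 451.7 in Control, and ATF6, SEC24D, ERN1 and ERO1B near the bottom are higher in MARK3i.

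The promoter elements shown above were then set beside these changes. Of the 11 genes with an ER stress element of either kind, 10 were called lower and 1, ERO1B, was called higher, with a median change of −0.97 and a range of −1.31 to 0.55. The matches of CALR, SDF2L1 and ERO1B lie outside the window of 150 bases before the start, so this split depends on the window. Among all tested genes 28.3% were called lower and 29.8% higher. By level per length in Control, the 10 held ranks between 1 (CALR) and 16 (HERPUD1), and ERO1B held rank 35. The part of level in this split was not tested. Of the 20 with a promoter entry and neither element, 7 were called lower, 2 higher and 11 not called, with a median of −0.10. MANF (−1.32) and PDIA4 (−1.18) were among the 7, so an exact match was not shared by all genes with large falls. Outside the 35 genes, in a count added after the values had been seen, 33 others in the promoter table held an element, 18 of them tested. Of these 18, 6 were called lower, 2 higher and 10 not called, with a median of −0.10. Of 2 named after their values were seen, ALG12, the lowest of the 18 (−0.51 ± 0.08), is a mannosyltransferase gene that lies head to head with CRELD2 and shares its match, while SERP1, a translocon-associated gene, was not called (adjusted p = 0.969). No match says only that these letters are not in this window, and binding of a factor was not measured.

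**Figure D5:**
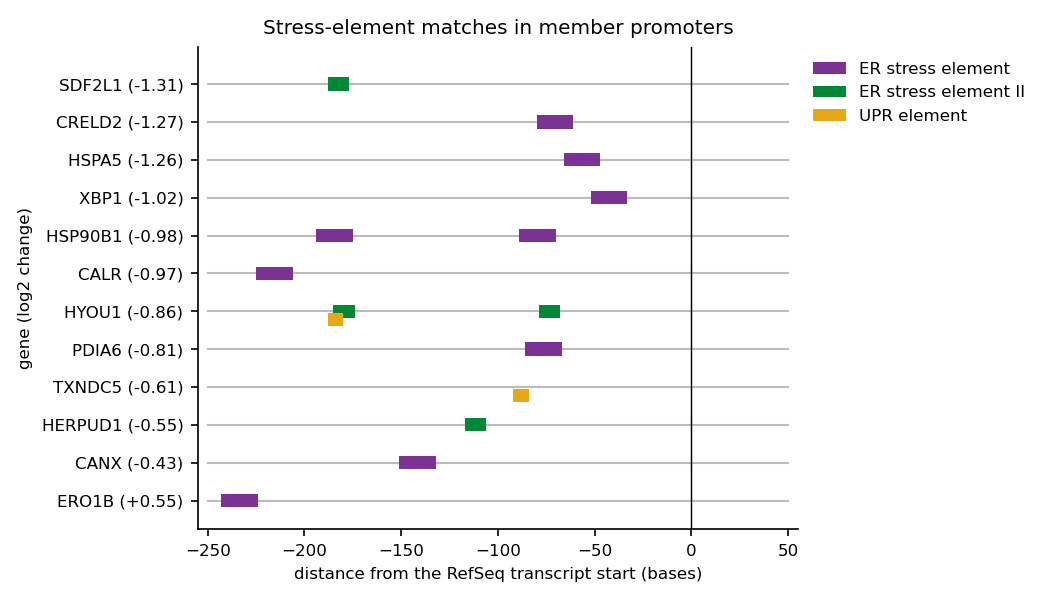
Position of stress-element matches (coloured blocks) in the promoters of the 12 genes with a match, in bases from the RefSeq transcript start at 0, with genes ordered by log2 change (in brackets). The lowest change in the plot is −1.31 (SDF2L1), and ERO1B at the bottom is the gene that was called higher.

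Further motifs were searched in the same 31 genes. The UPR element TGACGTGG was found in 2 (HYOU1 and TXNDC5; 6.45%, against 0.927% of all genes) and the C/EBP-ATF site TGATGCAA in 1 (HERPUD1; 3.23%, against 1.08%). The E-box CACGTG, a palindrome, was found in 5 (16.1%, against 8.77% of all genes).

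The rest of the pathway, 167 genes in 6 further lists of which 164 were tested, did not share the direction of the chaperones. Of the 164, 44 were called higher (26.8%) and 47 lower (28.7%), with a median of −0.01. These shares are close to those of all tested genes, 29.8% higher and 28.3% lower, against which each list below is to be read. ERN2, CREB3L3 and SEC16B did not pass the filter on low counts.

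Relatives of the sensors and other signalling genes went both ways, with 8 of 25 called higher and 7 lower. CREB3L4, the gene of an ER-anchored transcription factor that is abundant in prostate, averaged 50.4 ± 3.62 CPM in MARK3i and 174.0 ± 8.72 CPM in Control (−1.79 ± 0.07, adjusted p = 2.71e-17), and CREB3L1 was at 0.723 ± 0.25 CPM in MARK3i and 4.85 ± 1.08 CPM in Control (−2.69 ± 0.25). CREB3 was called higher (0.41 ± 0.07), as was MBTPS1 (0.41 ± 0.06), the gene of the Golgi protease that makes the first cut in ATF6. ATF6B, the ATF6 paralog, was called higher (0.23 ± 0.08, adjusted p = 0.0147), a call that ended without MARK3i replicate 2 (0.14, adjusted p = 0.098, the highest over its alternatives). Downstream of PERK, PPP1R15A, which encodes a phosphatase subunit that restores translation, was called higher (0.65 ± 0.08), and the pseudokinase gene TRIB3 was called lower (−0.83 ± 0.06). ATF4 was slightly lower (−0.19 ± 0.06, adjusted p = 0.00726), with no call under total counts (−0.09, adjusted p = 0.176, the highest over its alternatives), and DDIT3, which encodes the factor CHOP, was not called (−0.12 ± 0.10, adjusted p = 0.309).

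Of 41 other ER folding genes, 9 were called higher (22.0%) and 13 lower (31.7%), or 14 higher with total counts. The disulfide oxidase gene QSOX1 averaged 183.6 ± 5.75 CPM in MARK3i and 87.1 ± 5.26 CPM in Control (1.08 ± 0.06), and the prolyl isomerase genes PPIC (0.85 ± 0.08) and FKBP9 (0.79 ± 0.07) were called higher. The related isomerase genes FKBP10 (−1.30 ± 0.06) and PPIB (−0.64 ± 0.06) were called lower, so members of 1 enzyme class were found on both sides. Of 41 other ERAD genes, 16 were called higher (39.0%) and 7 lower (17.1%), or 11 lower with the GC adjustment. OS9, the gene of an ERAD lectin, rose to 334.0 ± 13.6 CPM in MARK3i, against 208.0 ± 7.53 CPM in Control (0.68 ± 0.05, adjusted p = 8.41e-11), and FOXRED2 (−0.73 ± 0.06) and UBXN8 (−0.89 ± 0.10) were called lower.

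Of 24 other translocon, signal recognition and signal peptidase genes, 4 were called higher (16.7%) and 8 lower (33.3%). With total counts 7 were called higher, and with the GC adjustment 2. SPCS3, a signal peptidase subunit gene, was lowest (−0.92 ± 0.06). Of 12 oligosaccharyltransferase genes, 3 were called higher and 6 lower, or 2 lower with total counts. The catalytic subunit gene STT3A was called lower (−0.66 ± 0.06) and TUSC3, a gene of an oxidoreductase subunit, higher (0.50 ± 0.05). The 3 calls for higher genes were down to 1 without MARK3i replicate 1 or Control replicate 3 or 4. Of 21 COPII and KDEL receptor genes tested, 4 were called higher (19.05%) and 6 lower (28.57%), with 7 and 2 under total counts. SEC16A, a scaffold of ER exit sites, was lowest (−0.59 ± 0.07), and SEC24B, a paralog of SEC24D, was called higher (0.34 ± 0.07).

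Exons of 11 of the 35 genes overlap those of another gene of at least 1 CPM on average. Besides DERL3 and DERL1, SEC61A1 shares 622 exon bases with RUVBL1 on the opposite strand (−0.79 ± 0.06), and SYVN1 shares 130 with FAU on the same strand and 356 with MRPL49 on the opposite strand (−0.25 ± 0.06 and −0.29 ± 0.06). CRELD2 shares 168 with ALG12, and HSP90B1 shares 805 with UQCC6, which stood at 21.9 ± 2.81 CPM in MARK3i and 23.7 ± 1.27 CPM in Control, far below HSP90B1. Below the cut of 1 CPM, TXNDC5 shares 2658 exon bases with BLOC1S5-TXNDC5 on the same strand, which had 0 CPM. How reads in shared bases were assigned is not stated, and their part in the values was not tested.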

How the data were processed

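Total RNA of 8 libraries of 22Rv1 cells was sequenced. The authors deposited raw counts per Ensembl gene, 1 file a library, made with featureCounts after alignment to hg38, per the labels; the submitters' processing notes also name DESeq2. The aligner and strand setting are not stated there. Symbols, coordinates and exon lengths came from GENCODE 44, which held 58207 of 58735 identifiers; 0 rows named no gene. Counts were tested in R 4.3.3 with edgeR 4.0.16 (filterByExpr with a minimum count of 10, TMM factors, robust quasi-likelihood fit, MARK3i against Control without a block) and Benjamini-Hochberg adjustment at 0.05. Within-library log2 count ratios were compared by exact permutation with scipy 1.17.1.

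The alternatives tried comprised scaling by RLE, by upper quartile or by total counts, other filters, DESeq2 1.42.0, limma-voom (limma 3.58.1), a non-robust dispersion, a replicate block, offsets for transcript GC content, each library left out, and an adjusted p under 0.01. The edgeR script was tested on simulated data. Counting precision at 12672817 counts or more limits only the scarce genes. The members and lists were chosen with earlier results of these data known. Pathway genes were named from the up to 3 called genes per list and direction with the smallest p, plus ATF6B, CREB3, CREB3L1, CREB3L4, ATF4 and DDIT3 whatever their result. A planned search for ER retention signals was not run. Some marker genes of the labelled tissue are not reported here.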

Additional observations from a re-analysis of the deposited data

Results flagged for a closer look

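In 170 groups of 4 libraries examined, 4 held a library whose gap to the nearest other passed Dixon's critical value as a share of the group's range, which chance gives in about 1 in 20 groups. PDIA6 stood at 155.6 CPM in Control replicate 3, against 164.8 to 166.6 CPM in the other Control libraries. WFS1 stood at 23.0 CPM in Control replicate 4, against 17.15 to 17.96 CPM in the others. PPP1R15A stood at 35.5 CPM in Control replicate 2, against 38.2 to 38.7 CPM in the others. The log2 ratio of EIF2AK3 to HSPA5 counts was −5.65 in Control replicate 3, against −5.85 to −5.83 in the others.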

How the results depend on the processing

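Of the 35 genes, 26 had the same call under all 19 alternatives, 22 of the 24 called genes among them (the exceptions are DNAJC3 and P4HB). A change of sign counted as a reversal only where the gene was called in the main or the alternative fit, and 0 reversed so. The uncalled EIF2AK3 (−0.157 to 0.078), ERO1A, DERL2, SEC61B and WFS1 (−0.105 to 0.0996) did change sign over the alternatives. Total-count scaling gave 10 higher calls among the 35 genes and 8 among the effectors, against 5 and 3 with TMM factors, and a median of −0.12, where GC offsets gave −0.30. Over the settings that leave out 1 library, 5 to 6 of the 35 were called higher and 18 to 20 lower, with medians of −0.27 to −0.21, and the SEC61A1 to SEC61B log2 ratio difference lay between −0.060 and 0.019, reversed at 0.019 without MARK3i replicate 4. The cause was not tested. Same-numbered libraries deviated together with correlations of 0.131, −0.0875, −0.0533 and 0.0838, so the numbers were not taken as pairs. With the replicate block 6 of the 35 were called higher and 19 lower, with a median of −0.23, and 4912 of all genes were called higher and 4684 lower, against 4897 and 4652 without it. Low counts limit DERL3 and TXNDC5 most, with 33 to 41 and 47 to 85 counts in MARK3i libraries. The search for ER retention signals was not run.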
